A study of Mus musculus with 9 samples.

Results

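This account concerns 4325 regions of the mouse genome that carried more H3K27me3 in the RANKL culture than in the WENRC culture and whose centre lay over 1 kb and at most 5 kb from the nearest annotated transcription start site (TSS). They were taken from the authors' deposited table of 35798 RANKL-higher regions, of which 28339 lay on chromosomes 1 to 19, and were chosen by the authors' tag ratio of RANKL to WENRC at a fold of 2 and by the absolute distance to TSS. Every member also had a p-value of at most 9.87e-05 from the authors' peak caller and at least 16 RANKL tags. Of those 28339, 2519 lay within 1 kb of a TSS and 21495 beyond 5 kb. The members lay nearest to the TSS of 3039 named genes, 2995 of which were matched in the nascent transcription table.

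The cultures are organoids (mini-guts) of mouse duodenum, and each is known by the name of its medium, whose letters the labels do not spell out. RANKL cultures are labelled as the intestinal M cell, WENRC as the intestinal stem cell and ENRI as the enterocyte, and no genotype, strain, age or dose is given for any of them. ChIP-seq of H3K27me3 had 32.7 M tags in RANKL, where the authors pooled 2 libraries, and 36.3 M tags in WENRC, with 1 library, so the difference in the mark has no replicate check and is described here without a test. Nascent RNA was measured by GRO-seq (a nuclear run-on assay of RNA at engaged polymerases) in 6 libraries, 2 of each culture, and these libraries played no part in choosing the regions. GRO-seq values are the authors' normalized log2 values, their depth is unknown, and the file header names the RANKL libraries as combined repeat sequencing apart from the others, so an effect of that sequencing and an effect of RANKL cannot be told apart. The labels give a mouse number for ENRI and WENRC but not for RANKL, so p-values measure the spread between these libraries, which may be technical. All cultures are bulk samples, in which fewer cells of a type and less RNA or less mark per cell cannot be told apart.

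H3K27me3 is written by Polycomb repressive complex PRC2, whose EZH subunit methylates lysine of the histone H3 tail, and it marks genes that are held silent, classically the Hox clusters and other developmental regulators. It often spreads as a domain around CpG-rich start sites rather than staying at them. M cells are epithelial cells over gut lymphoid tissue that carry antigens and microbes across the lining, and the cytokine RANKL drives their formation.

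The sequences below belong to the genes on which the results turn. Each is the 250 bases before the annotated start, from RefSeq on build GRCm38.p6, written 5′ to 3′ on the gene's strand with every CG in capitals, since CG-rich starts are where PRC2 is often found. Hoxb8 stands for the HoxB cluster because Hoxb9, Hoxb6 and Hoxb3 had no promoter in the RefSeq table. Il22ra1 and Ifnlr1 are neighbouring cytokine receptor genes that were lower together, and Tnfaip2 (against both other cultures) and Muc2 (against WENRC only) were higher in RANKL with a member beside each.
Hoxb8: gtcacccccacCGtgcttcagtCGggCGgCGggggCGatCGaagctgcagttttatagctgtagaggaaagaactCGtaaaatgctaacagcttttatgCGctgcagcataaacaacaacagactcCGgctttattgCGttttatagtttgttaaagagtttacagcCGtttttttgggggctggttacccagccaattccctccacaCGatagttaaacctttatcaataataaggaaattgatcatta
Il22ra1: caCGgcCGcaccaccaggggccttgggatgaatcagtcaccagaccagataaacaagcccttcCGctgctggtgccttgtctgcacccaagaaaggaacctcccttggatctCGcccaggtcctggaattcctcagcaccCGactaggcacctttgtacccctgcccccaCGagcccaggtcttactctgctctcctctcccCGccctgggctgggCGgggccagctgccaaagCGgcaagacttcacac
Ifnlr1: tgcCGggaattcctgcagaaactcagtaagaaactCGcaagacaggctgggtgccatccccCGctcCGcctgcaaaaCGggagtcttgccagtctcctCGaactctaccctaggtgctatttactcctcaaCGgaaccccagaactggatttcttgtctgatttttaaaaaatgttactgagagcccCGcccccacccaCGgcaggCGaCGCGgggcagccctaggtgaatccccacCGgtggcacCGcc
Tnfaip2: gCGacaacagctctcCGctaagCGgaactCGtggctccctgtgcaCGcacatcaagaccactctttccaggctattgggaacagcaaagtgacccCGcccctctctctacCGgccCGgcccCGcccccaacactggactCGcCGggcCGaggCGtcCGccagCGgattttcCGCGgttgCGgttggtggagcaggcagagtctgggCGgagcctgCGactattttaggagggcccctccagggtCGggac
Muc2: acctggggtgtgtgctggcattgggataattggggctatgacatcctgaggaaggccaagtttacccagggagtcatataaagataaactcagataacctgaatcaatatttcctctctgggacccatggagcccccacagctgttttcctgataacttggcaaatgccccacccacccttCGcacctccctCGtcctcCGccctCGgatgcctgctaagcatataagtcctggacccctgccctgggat
These stretches hold 12 CG in Hoxb8, 9 in Il22ra1, 14 in Ifnlr1, 21 in Tnfaip2 and 4 in Muc2, against a median of 6 over all 32851 promoters in the RefSeq table. At least as many CG as in Tnfaip2 stood in 16.3% of all promoters, and at least as many as in Muc2 in 62.2%. For Hoxb8, Il22ra1 and Ifnlr1 this share was 33.5%, 40.3% and 29.4%. Only 73.4% of member genes had a promoter in that table, so a check of CG content over all members is void. The coordinates of the regions are on build mm9. Members also lay beside both microRNAs of the HoxB cluster in the RefSeq table, shown here as mature 5p strands with the seed (bases 2 to 8) in capitals because a member covers the start of Mir196a-1.
mmu-miR-196a-5p: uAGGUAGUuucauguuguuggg
mmu-miR-10a-5p: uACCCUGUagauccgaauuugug

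Members were mostly short stretches with modest tag numbers. Their median size was 629 bp, and 2025 of them (46.8%) had the smallest size in the table, 500 bp. The largest was 15419 bp, and all members together covered 4.03 Mb. Pooled RANKL had a median of 33 tags per member (middle 50% from 24 to 54) and WENRC 12.6 tags after the authors' scaling to RANKL depth. The authors' fold, the ratio of these 2 values and at least 2 by their threshold, had a median of 2.72 with a middle 50% from 2.36 to 3.22, and 462 members (10.7%) reached 4. All of these values belong to the contrast that chose the regions. Against the rest of the RANKL-higher table, members had fewer tags than regions within 1 kb (median 51) and more than regions beyond 5 kb (median 26). Tags are totals per region, and region size went the same way, with medians of 785 bp within 1 kb and 500 bp beyond 5 kb. Tags per length were not compared, so these totals do not show a graded density of the mark.

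**Figure D1:**
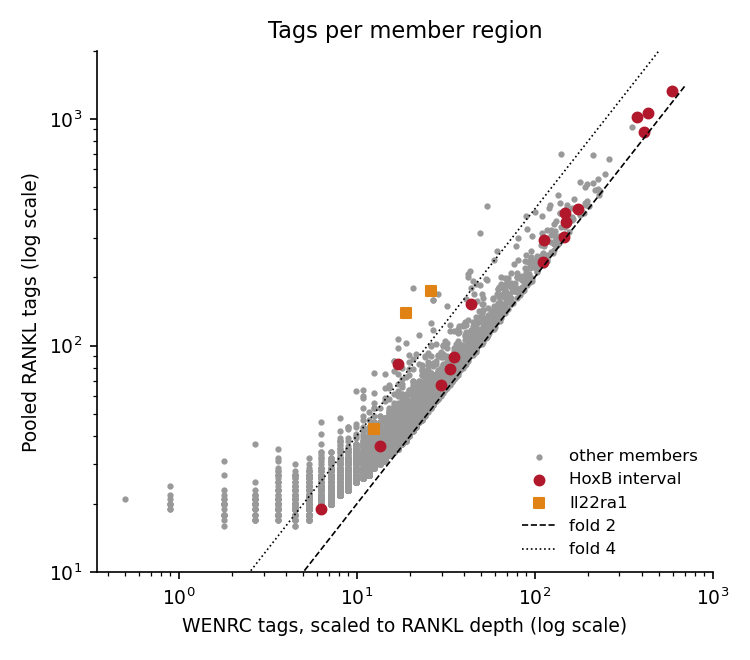
Each point is 1 of the 4325 members: pooled RANKL tags on the vertical log axis against scaled WENRC tags on the horizontal log axis, with lines at a fold of 2 and of 4. The 3 members with the most tags, up to 1335, are in the HoxB interval (red) near a fold of 2, and 2 of the 3 Il22ra1 members (orange) lie above the line for 4.

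Folds and tags ranked the members differently, and at a given p of the peak caller a region of few tags needs a higher fold. The 6 highest folds among members with WENRC tags above the deposited floor were 500-bp regions with 20 to 24 RANKL tags and 0.9 scaled WENRC tags each: at Rflnb (fold 26.66, intron 1, chr11:75839961-75840461), Srpk2 (24.44), Ctdspl (23.33), and Rnf217, 1810065E05Rik and Mir5135 (22.22 each). A single member, in intron 2 of the Fc receptor gene Fcamr, stood at the floor of 0.5 WENRC tags, with 21 RANKL tags. By tags the order was led by long regions of low fold. These were the regions at Hoxb13 (1335 tags, fold 2.25), Hoxb9 (1058, 2.43), Mir196a-1 (1022, 2.71) and Onecut3, a homeobox gene (923, 2.63, 10074 bp).

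The distance limits cut through a continuous range. Just inside the near limit lay regions at 2900041M22Rik (1003 bp downstream, fold 2.37), Meox2 (1003 bp upstream, 2.27), Tcea2 (1003 bp upstream, 3.05) and Tigd5 (1004 bp downstream, 2.68), and just outside it Tmem63c (1000 bp, 3.07), Rbfox3 (999 bp, 3.05), Ampd3 (999 bp, 4.22) and Kcng1 (998 bp, 2.12). At the far limit the regions just inside were at Arhgap25 (4998 bp, fold 2.54), Myt1 (4997 bp, 3.02), C130026L21Rik (4996 bp, 2.78) and Adcy5 (4995 bp, 2.22), and those just outside at Gys2 (5003 bp, 4.07), Acsl6 (5004 bp, 2.29), Espn (5004 bp, 3.43) and Kcnk2 (5006 bp, 2.68). Because distance is measured from the centre, 117 members (2.71%) were long enough to cover the TSS, and 655 had an edge within 1 kb of it.

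More members lay downstream than upstream of the TSS, as did the other RANKL-higher regions. Upstream of the TSS lay 1993 (46.1%, 95% Wilson interval 44.6 to 47.6) and downstream 2332, while 43.6% of RANKL-higher regions within 1 kb, 44.7% of those beyond 5 kb and 599 of 1177 WENRC-higher regions at the members' distances (50.9%) lay upstream. Introns held 2129 members (49.2%), intergenic sequence 1714 (39.6%) and exons 238 (5.50%). Of the WENRC-higher regions at the same distances 45%, 46.1% and 2.8% lay in these classes. Of the intronic members 1347 (63.3%) were in intron 1. Of 2595 members inside a transcript of the RefSeq table, 2263 (87.2%) lay in their nearest gene itself and 332 in another one. The limit of 5 kb from a TSS by itself favours intron 1 and the nearest gene, and no matched share was taken for either. CpG islands were the annotation of 69 members (1.60%), against 4.17% of RANKL-higher regions within 1 kb and 0.521% of those beyond 5 kb. The interval covers counting error only, and neighbouring regions can be pieces of 1 domain.

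**Figure D2:**
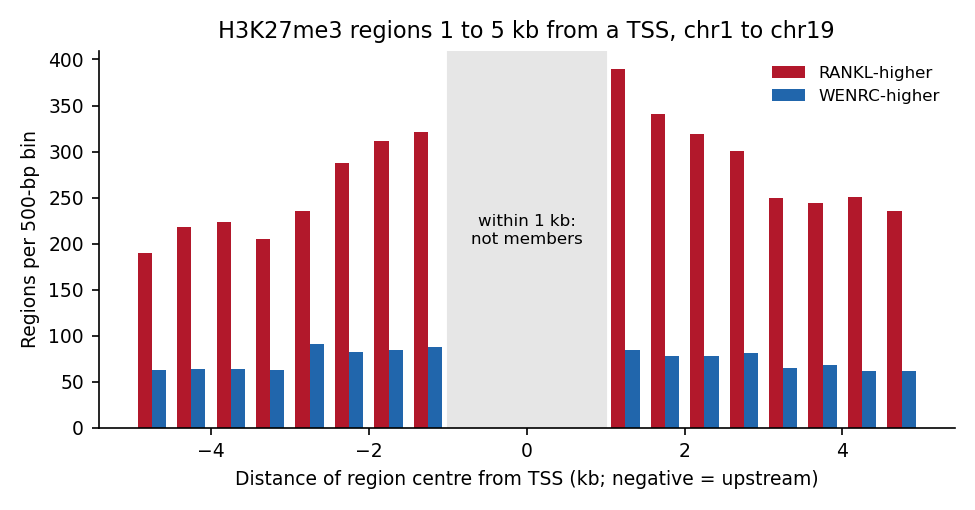
Number of regions per 500-bp bin of signed distance from the TSS (negative is upstream), for the 4325 RANKL-higher members (red) and the 1177 WENRC-higher regions at the same distances (blue). Members fell from 390 in the first downstream bin and 321 in the first upstream bin to 236 and 190 in the outermost bins.

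Most genes had a single member. There were 2096 such genes, 677 had 2 members and 266 had 3 or more. Relative to the nearest annotated TSS, members lay only upstream for 1095 genes, only downstream for 1293 and on both sides for 651. That TSS can be an alternative start inside the gene, so an upstream member can lie in the gene body. Examples are members of Hoxb3 (2965 bp upstream, in intron 1) and Asic1 (3138 bp upstream, in intron 3). A gene with several annotated starts collects members around each of them. The genes with the most members were Hrh1 (a histamine receptor) and Atp2b2 (a plasma membrane calcium pump) with 7 each, Nfasc (an adhesion protein of axons) and Myt1 (a neural zinc finger factor) with 6 each, and Asic1 (an acid-sensing ion channel) with 5. All of these 5 genes passed the low-value filter of the GRO-seq test, and for each of them RANKL against WENRC missed the threshold (log2 difference from -0.25 in Hrh1 to 1.07 in Atp2b2). Against ENRI, Hrh1 was called lower (-1.31 ± 0.19, limma FDR 0.00946) and the other 4 missed the threshold. A second RANKL-higher region within 1 kb of the TSS was listed for 1128 member genes (37.1% of member genes, 47.5% of the 2374 genes with such a region), and one beyond 5 kb for 1965 (64.7%). Of the 3039 genes, 195 (6.42%) also had a WENRC-higher region at 1 to 5 kb, which is 18.5% of the 1055 genes with one.

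Some members lay close together. The windows of 200 kb that held the most members were chosen after their counts were seen. On chromosome 15, the window at chr15:78134188-78331374 held 21 members at 10 genes: Csf2rb2, Csf2rb and Il2rb, receptor subunits of blood cells, and Mir7676-2, Mir7676-1, Tex33, Tst, Mpst, Kctd17 and Tmprss6. The keratin cluster held 21 members at chr15:101289588-101479677 (Krt81 to Krt75, hair and nail keratins among them) and 16 more at chr15:101512640-101703945 (Krt6b to Krt77). Chromosome 15 carried 6.03% of members and 4.54% of all autosomal RANKL-higher regions. On chromosome 17, 16 members lay at chr17:25430852-25630768 at 9 genes: the serine protease genes Prss34, Prss28, Prss29, Tpsab1, Tpsb2 and Tpsg1, and Cacna1h, Tekt4 and Sstr5. Few genes of these 4 windows were transcribed above the filter, 3 of 10, 1 of 10, 1 of 10 and 3 of 9. Among those tested 1 gene, Sstr5 on chromosome 17, was called in RANKL against WENRC, as higher, beside 8.53% higher over all genes tested. The window at chr10:80302588-80489916 held 13 members at 5 genes, of which 4 were tested. Gadd45b, a stress-response gene, and Gng7, a G protein subunit, were called lower than in WENRC, beside 3.62% lower over all genes tested. With 4 genes tested, these calls are too few to read as a trait of the window.

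Of these windows the one over the HoxB cluster had the highest tag sum. Hox genes encode homeobox factors that set position along the body axis and are the classical Polycomb targets. In the interval chr11:96046098-96210363, 17 members with folds from 2.06 to 4.85 summed to 6780 RANKL tags and 2840.9 scaled WENRC tags, a ratio of 2.39, and held 2.93% of the tags of all members. Members alone covered 69.1 kb, and with the other RANKL-higher regions between them (35 regions in all) 103 kb, or 63.0% of the 164 kb. The members at Hoxb13, Mir196a-1, Hoxb9 and Hoxb4 covered those TSSs. The highest fold in the interval was a region 4490 bp upstream of the noncoding gene Gm53 (83 tags against 17.1, fold 4.85). Of the other clusters, HoxA had 3 members (Hoxa4, Hoxa5, Hoxa7), HoxD 1 (Hoxd8) and HoxC none, and none of those 4 genes passed the low-value filter.

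**Figure D3:**
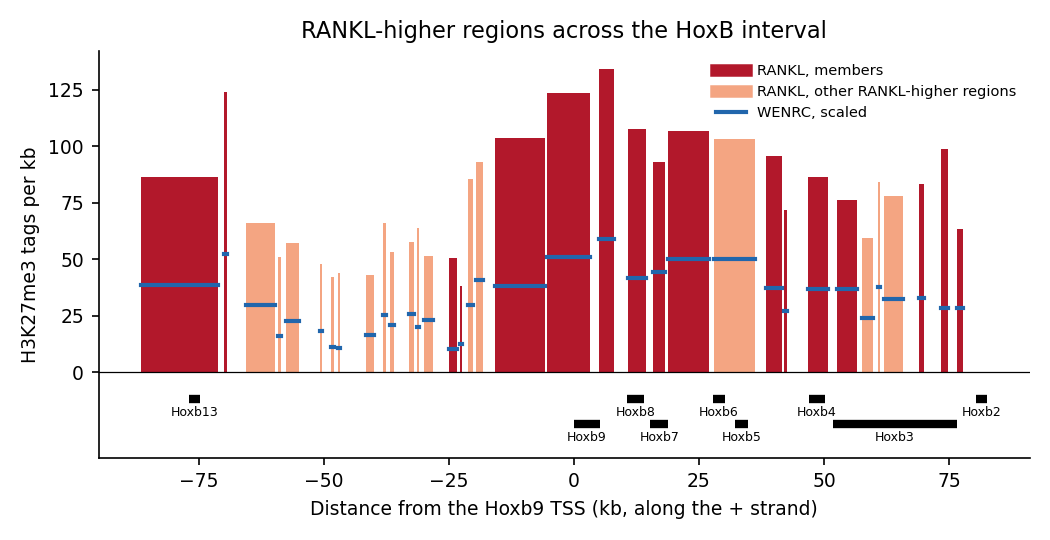
H3K27me3 tags per kb of each RANKL-higher region across the HoxB interval, as distance in kb from the Hoxb9 TSS: bars are pooled RANKL (dark red members, light other regions), blue lines the scaled WENRC value of the same region, and black boxes the genes. RANKL stands above WENRC in all 35 regions, as the choice of regions requires, and the tallest member bar, 134.5 tags per kb against 59.0, lies between Hoxb9 and Hoxb8.

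Transcription of several HoxB genes was lower in RANKL, as measured in libraries that the choice of regions did not use. This included Hoxb5, which had no member (-1.24 ± 0.24 against WENRC, limma FDR 0.027, and -1.14 ± 0.24 against ENRI, limma FDR 0.025); both calls were lost with quantile normalization (limma FDR 0.0562 and 0.0556). Differences are given as RANKL minus the other culture on the log2 scale ± SE, tested with limma in 1 fit of all 6 libraries with the false discovery rate (FDR) taken over all 16563 genes tested. Hoxb3 stood at 5.29 and 5.11 in the RANKL libraries, with 8.06 and 7.69 in WENRC and with 7.8 and 6.98 in ENRI. The RANKL libraries were below all 4 others, by 2.67 ± 0.31 against WENRC (limma FDR 0.00701) and 2.19 ± 0.31 against ENRI (limma FDR 0.00848). Hoxb9 read 4.67 and 4.52 in RANKL, with 6.27 and 6.20 in WENRC and with 5.22 and 5.44 in ENRI, with no overlap between cultures. Its difference was -1.64 ± 0.19 against WENRC (limma FDR 0.00715) and -0.73 ± 0.19 against ENRI (limma FDR 0.0432). The call against ENRI was lost in the fit of the 4 libraries compared (limma FDR 0.0939), with no low-value filter (0.0693) or a filter at log2 of 50 (0.0641), with a replicate block (0.0748) and by the adjusted p of the authors' deposited table (0.167).

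Hoxb6 (3.77 and 3.83 in RANKL, 5.15 and 5.07 in WENRC) and Hoxb8 (3.37 and 3.4 against 4.07 and 4.30) were also called lower than in WENRC, at -1.31 ± 0.22 (limma FDR 0.0166) and -0.80 ± 0.17 (limma FDR 0.0374). Against ENRI, Hoxb6 was called lower at -1.05 ± 0.22 (limma FDR 0.0230), and Hoxb8 missed the threshold at -0.59 ± 0.17 (limma FDR 0.0596). For Hoxb4 (-0.84 ± 0.23, limma FDR 0.0664) and Hoxb7 (-0.77 ± 0.31, limma FDR 0.167) the difference from WENRC missed it too. The noncoding Hoxb5os showed the most negative difference of the called member genes whose libraries do not overlap: 4.07 and 4.31 in RANKL, with 8.32 and 7.86 in WENRC and with 8.13 and 7.01 in ENRI, or -3.90 ± 0.39 against WENRC (limma FDR 0.00493) and -3.38 ± 0.39 against ENRI (limma FDR 0.00489). Hoxb5os runs antisense across Hoxb5 and Hoxb6, and strand handling of the reads is not stated, so the values of these genes cannot be told apart. A member lay nearest to 12 of the 39 listed Hox genes, and 6 of these were tested. Of the 6, 4 were called lower than in WENRC (66.7%, beside 3.62% of all genes tested) and none higher. Their median difference was -1.08, against -0.01 over all genes tested. Over the whole Hox list, with or without a member, 13 genes were tested, 6 were called lower and none higher, and the median was -1.31. With a replicate block or no low-value filter Hoxb8 lost its call against WENRC (limma FDR 0.0665 and 0.0545), and in the fit of the 4 libraries compared Hoxb6 lost its call against ENRI (limma FDR 0.0594).

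Across all members the shift in transcription was small, and most member genes were transcribed at low levels in every culture. Per kb of gene length, the median GRO-seq level of member genes (log2) was -0.37 for RANKL, -0.41 for WENRC and -0.35 for ENRI, against 3.28, 3.27 and 3.20 for the other autosomal genes. Of the 2995 matched genes, 183 were listed at 0 in all 6 libraries, 1837 (61.3%) passed the filter of log2 of 10 in at least 2 libraries, and 67.6% of all genes did. Of the 1837, 4 passed through the RANKL libraries alone, 3 through ENRI alone and 6 through WENRC alone. In RANKL against WENRC, 107 member genes were called lower (5.82%, beside 3.62% of all genes tested) and 110 higher (5.99%, beside 8.53%), with a median difference of -0.08 against -0.01. Recentring each library on its upper quartile moved the median of all genes to -0.12 and gave 147 member genes lower (8%, beside 6.59% of all genes) and 96 higher (5.23%, beside 7.52%). In RANKL against ENRI, which shares the RANKL libraries, 185 were called lower (10.1%, beside 10.5%) and 139 higher (7.57%, beside 10.4%), with a median of -0.04. The shares called lower are thus above the background against WENRC and near it against ENRI, while those called higher are below it in both, and these differences between shares were not tested. For comparison, of 667 tested genes with a WENRC-higher region at 1 to 5 kb, 14 were called lower (2.10%) and 130 higher (19.5%) in RANKL against WENRC.

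Counts of calls depended on single libraries of each culture. Where a culture is left with 1 library, that library is assumed to vary like the other cultures, whose replicate differences had an SD across genes of 0.22 in RANKL, 0.421 in WENRC and 0.699 in ENRI. Without RANKL 1 or without RANKL 2, limma called 0 of all genes against WENRC (smallest FDR 0.0516 and 0.0541). At unadjusted p below 0.05 the member genes then numbered 152 lower and 128 higher without RANKL 1, and 146 and 133 without RANKL 2. Against WENRC, 6 lower and 15 higher remained called without WENRC 1, 5 and 18 without WENRC 2, 301 and 212 without ENRI 1, and 301 and 211 without ENRI 2. Against ENRI, 8 and 7 were called without RANKL 1, 5 and 3 without RANKL 2, 115 and 91 without WENRC 1, 115 and 88 without WENRC 2, 282 and 313 without ENRI 1, and 330 and 200 without ENRI 2. The authors' deposited table, whose adjusted p comes from their own test, called 273 member genes lower (14.9%, beside 11.1% of all genes tested) and 185 higher (10.1%, beside 16.7%) against WENRC, and 217 lower (11.8%, beside 11%) and 130 higher (7.08%, beside 8.55%) against ENRI.

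The share of genes called lower than in WENRC was higher in the classes of higher fold, and over tags in the top class alone. By the highest fold of a gene's members it was 3.36% of 476 genes at folds of 2 to 2.5, 4.87% of 534 at 2.5 to 3, 6.25% of 544 at 3 to 4 and 11% of 283 at 4 or more. The median difference moved from 0.00 to -0.01, -0.13 and -0.25 over these classes. By RANKL tags summed over a gene's members it was 5.15% below 25 tags, 4.31% from 25 to under 50, 5.9% from 50 to under 100, 6.54% from 100 to under 200 and 12.4% of 145 genes at 200 or more, where 2.07% were higher. It did not follow the number of members, at 5.62% of genes with 1, 7.12% with 2 and 4.29% with 3 or more. Where a member covered the TSS, 12 of 88 genes were lower (13.6%) and 1 was higher, with a median of -0.39, and the 95 lower and 109 higher genes without such a member made up 5.43% and 6.23% of 1749. In the fit of the 4 RANKL and WENRC libraries alone, which calls more genes, the fold classes gave 11.8%, 12.5%, 17.8% and 27.9% lower, beside 13.2% of all genes. Against ENRI, which shares the RANKL libraries, the fold classes gave 7.35%, 10.1%, 10.8% and 13.1% lower, beside 10.5% of all genes. The tag classes gave 10.3%, 8.46%, 9.3%, 11.2% and 16.6% lower than ENRI, and genes with a member covering the TSS 17%. Level moves with the fold: the median WENRC level per kb was -0.76 in the lowest fold class and 1.02 in the highest, and its part in the result was not tested. When all tested genes were split by level into 3 equal classes, 58 of 1290 member genes in the lowest class were lower (4.5%, against 3.57% of all genes there), 34 of 387 in the middle class (8.79%, against 3.19%) and 15 of 160 in the highest (9.38%, against 4.11%). Genes with members only downstream of the nearest annotated TSS were lower in 53 of 781 (6.79%). Those with members only upstream of it were lower in 30 of 674 (4.45%).

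**Figure D4:**
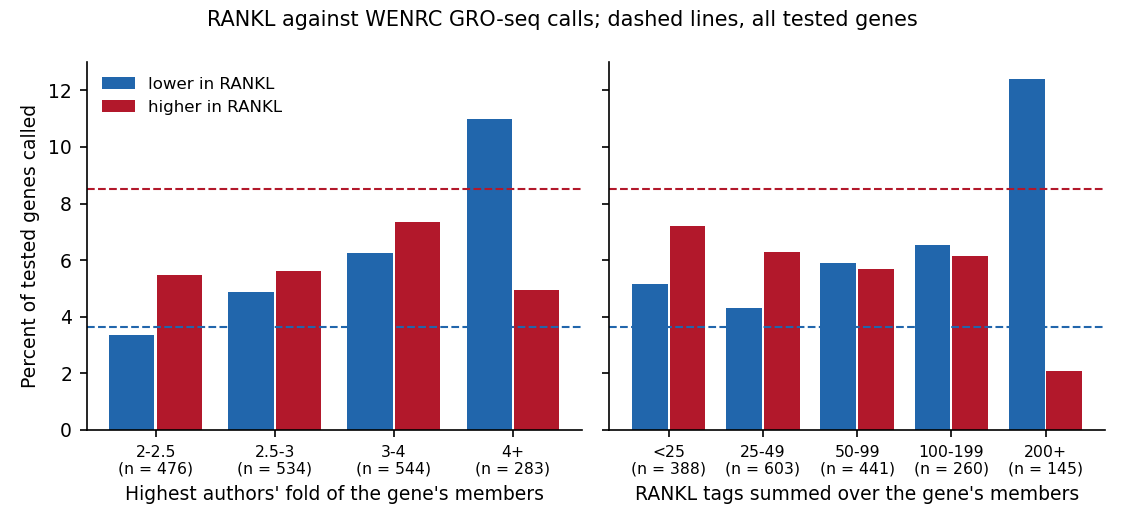
Percent of tested member genes called lower (blue) or higher (red) in RANKL than in WENRC at an FDR below 0.05, by the highest authors' fold of the gene's members (left) and by RANKL tags summed over its members (right), with the number of genes under each pair of bars. Dashed lines mark the same shares of all 16563 genes tested, 3.62% lower and 8.53% higher, and the rightmost classes reach 11% and 12.4% lower.

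Among the genes called lower, a pair of neighbouring cytokine receptor genes on chromosome 4 stood beside members. Il22ra1 encodes the subunit of the interleukin-22 receptor by which gut epithelium senses that cytokine, and Ifnlr1 the specific subunit of the lambda interferon receptor; parts of their promoters are printed above. Il22ra1 had 3 members: 4112 bp upstream (43 RANKL tags against 12.6 scaled WENRC tags, fold 3.41), 1621 bp upstream (139 against 18.9, 7.35) and in intron 1 at 1544 bp (174 against 26.1, 6.66, chr4:135284113-135287123). Its transcription read 7.26 and 7.12 in RANKL, with 9.53 and 9.06 in WENRC and with 10.73 and 11.47 in ENRI, so the cultures did not overlap and ENRI was highest. It fell by 2.11 ± 0.28 against WENRC (limma FDR 0.00970) and by 3.91 ± 0.28 against ENRI (limma FDR 0.00204). Ifnlr1 had 1 weaker member, 4242 bp upstream (19 tags against 5.40, fold 3.52). It read 6.06 and 5.86 in RANKL, with 8.50 and 8.63 in WENRC and with 9.12 and 9.41 in ENRI, which is -2.61 ± 0.18 (limma FDR 0.00181) and -3.31 ± 0.18 (limma FDR 0.00104).

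Signalling ligands and a ligand-processing enzyme were also among the most negative. Pdgfa, a ligand that gut epithelium sends to the mesenchyme, had a 5955-bp member centred 3630 bp upstream (373 tags against 89.1, fold 4.19) and another in intron 2. It read 8.23 and 8.10 in RANKL, with 10.45 and 10.41 in WENRC and with 10.03 and 10.72 in ENRI, a fall of 2.27 ± 0.23 against WENRC (limma FDR 0.00522). Slit2, a secreted guidance cue, had a member of 209 tags against 80.1 at its first exon, 1999 bp downstream. It read 8.24 and 8.12 in RANKL, 10.21 in both WENRC libraries and 9.69 and 9.57 in ENRI, or -2.03 ± 0.13 against WENRC (limma FDR 0.00166). Pcsk6, a protease that matures secreted growth factors, read 7.23 in both RANKL libraries, 10.08 and 9.81 in WENRC and 10.38 and 8.88 in ENRI (-2.72 ± 0.46 against WENRC, limma FDR 0.0179). Both RANKL values lay below all others for these genes.

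The remaining genes named by the same rule were of mixed kinds. Jdp2, a repressor of the AP-1 family, differed by -2.29 against WENRC (limma FDR 0.0234) and Gpx2, the glutathione peroxidase of gut epithelium, by -1.90 (limma FDR 0.0139), and against ENRI neither passed (-1.01 in each). Gpx2 had members 1456 and 3974 bp upstream with folds of 4.03 and 6.66. The annotation placed them at the end and in the last exon of a transcript that ends upstream of the Gpx2 TSS. Igsf11, an adhesion protein, with a member in intron 1 (87 tags against 20.7, fold 4.20), fell by 1.91 against WENRC (limma FDR 0.00493) and also fell by 1.05 against ENRI (limma FDR 0.0165). Setbp1, a SET-binding factor, differed by -2.04 against WENRC (limma FDR 0.0368), and Nespas, an antisense transcript at the imprinted Gnas locus whose reads cannot be told from those of Gnas, by -2.26 (limma FDR 0.0208).

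Genes higher in RANKL also lay beside members. Tnfaip2, a marker of M cells, was the only one of 24 M cell genes with a member, a 500-bp region in intron 3 at 3892 bp (24 tags against 8.10, fold 2.96). It read 9.88 and 9.96 in RANKL, with 5.46 and 5.02 in WENRC and with 5.13 and 4.98 in ENRI, which is 4.68 ± 0.21 above WENRC (limma FDR 0.00123). Col13a1, a transmembrane collagen, had 2 members with 88 and 148 tags (folds 2.38 and 2.35). It stood at 9.42 and 9.50 in RANKL against 3.08 and 4.84 in WENRC and 3.63 and 4.93 in ENRI, and at 5.50 ± 0.65 (limma FDR 0.00740) it had the largest rise of the called member genes whose libraries do not overlap. Celsr3, an adhesion receptor of planar polarity, read 11.66 and 11.76 in RANKL, with 7.35 and 7.34 in WENRC and with 9.84 and 10.87 in ENRI (4.37 ± 0.32 above WENRC, limma FDR 0.00203). Further genes of this kind were Adgrb1, an adhesion receptor (3.93 above WENRC), Btbd11 (3.78), Zbtb7c, a zinc finger factor (3.64, with 3 members), and the proteoglycan Gpc1 (3.4, with 2). Folds at these 7 genes were between 2.16 and 3.33. Zbtb7c overlaps 2900057B20Rik, so its value can include reads of that gene.

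**Figure D5:**
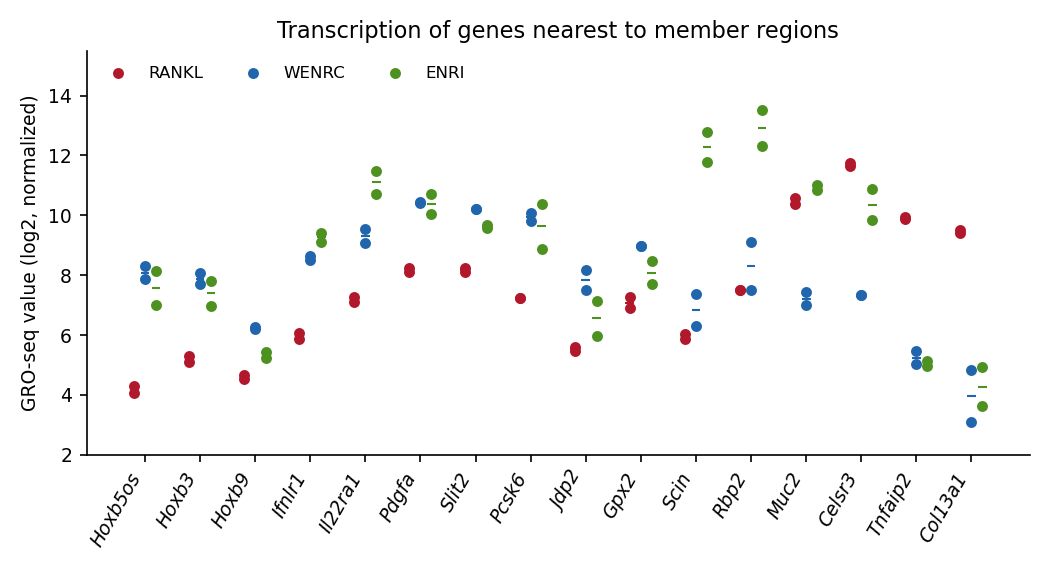
GRO-seq values (log2, normalized by the authors) of 16 genes nearest to members in each of the 2 RANKL (red), 2 WENRC (blue) and 2 ENRI (green) libraries, with a short line at each culture's mean. The RANKL points lie below both other cultures for the genes from Hoxb5os to Gpx2, below ENRI but near WENRC for Scin and Rbp2, and above WENRC from Muc2 to Col13a1.

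Each list of intestinal lineage genes had some members, and a member lay nearest to 12.2% of all genes. In the enterocyte list 2 of 24 genes had one: Scin, an actin-severing protein of the brush border, and Rbp2, the retinol-binding protein of absorptive cells. Scin had a 4017-bp member in intron 1 (249 tags against 102.6, fold 2.43) and one 2500 bp upstream, and read 5.88 and 6.04 in RANKL, with 7.36 and 6.31 in WENRC and with 11.78 and 12.79 in ENRI. Rbp2, with a member 3764 bp upstream (20 tags against 2.70, fold 7.41), read 7.52 and 7.49, 9.11 and 7.52, and 12.31 and 13.52. Both were far below ENRI (-6.33 ± 0.44, limma FDR 0.00197, and -5.41 ± 0.59, limma FDR 0.00424), and against WENRC neither passed (-0.88 and -0.81). ENRI has no H3K27me3 library here.

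In the goblet list 4 of 13 genes had a member. Muc2, the main secreted mucin, had members 2744 bp upstream and at exon 6 (38 and 116 tags, folds 2.48 and 2.3), and read 10.58 and 10.37 in RANKL, with 7.44 and 7 in WENRC and with 10.86 and 11 in ENRI. It rose by 3.25 ± 0.19 against WENRC (limma FDR 0.00144), whereas Spink4 fell by 0.90 ± 0.15 (limma FDR 0.0192). The median level over the whole goblet list was 7.54 and 7.48 in the RANKL libraries and 7.32 and 7 in WENRC. Of its 12 tested genes 5 were called higher than in WENRC and 1 lower, with a median difference of 0.74. Over all genes tested 8.53% were called higher and 3.62% lower. The part of cell numbers was not tested. In the crypt stem list 5 of 19 genes had a member, among them the stem cell genes Olfm4, Ascl2 and Ephb2, and none was called against WENRC. Olfm4 read 10.90 and 11.05 in RANKL, with 8.83 and 9.12 in WENRC and with 5.14 and 7.41 in ENRI, a difference of 2 ± 0.67 from WENRC (limma FDR 0.112).

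In the enteroendocrine list 10 of 20 genes had a member (50%, beside 12.2% of all genes), and 9 of these were tested. Tph1, the enzyme of serotonin synthesis (2.03 ± 0.32, limma FDR 0.0152), and Chga, a granule protein (0.89 ± 0.18, limma FDR 0.0315), rose against WENRC. They were 22.2% of those tested, beside 8.53% of all genes. Over the whole list 14 genes were tested, and 2 were called higher. Of 14 Paneth genes 2 had a member (14.3%), and Reg4 rose (2.42 ± 0.36, limma FDR 0.0133). Over the whole Paneth list 13 genes were tested, and 8 were called higher than in WENRC. Of 13 tuft cell genes 3 had a member, and none of these was called. For cell types outside the epithelium, 6 of 10 mesenchymal, 2 of 7 endothelial and 3 of 11 immune genes had a member (60%, 28.6% and 27.3%). These shares rest on few genes. Of the 10 mesenchymal markers 2 were above the filter in every library, and the 1 tested gene with a member, Pdgfrb, rose by 2.45 ± 0.33 (limma FDR 0.0102). The M cell markers stood at medians of 8.90 and 8.81 in the RANKL libraries, against 5.86 and 5.80 in WENRC and 6.07 and 5.63 in ENRI.

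Members lay beside many genes of the developmental families. A member lay nearest to 12.2% of all genes in the table, against 112 of 289 developmental transcription factors (38.8%), 56 of 142 secreted ligands (39.4%), 28 of 63 Wnt pathway genes (44.4%), 101 of 299 ion channels and transmitter receptors (33.8%) and 26 of 86 collagens, laminins and integrins (30.2%). These shares were not tested and gene length was not matched. Of the 112 factors 47 were tested, with a median of 0.02. Of these 8.51% were called lower than in WENRC and 2.13% higher, beside 3.62% and 8.53% of all genes tested. Those called lower included Gli1 (-0.92, lost with a replicate block at limma FDR 0.0581 and with no low-value filter at 0.0591), Irx5 and Prdm12, and Six4 (1.33) was called higher. Gli1 overlaps Arhgap9, so its value can include reads of that gene. Of the 38 ligands tested Slit2 and Pdgfa were lower (5.26%) and Wnt10a, Wnt6 and Wnt3 higher (7.89%), with a median of -0.15.

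Of the 20 tested Wnt pathway genes, the receptors Fzd8 and Fzd3 were lower (10%, beside 3.62% of all genes) and the same 3 ligands higher (15%, beside 8.53%). Fzd8 read 4.48 and 4.51 in RANKL, with 5.69 and 5.72 in WENRC and with 5.57 and 5.77 in ENRI, a fall of 1.21 ± 0.18 against WENRC (limma FDR 0.0137). Wnt10a rose by 1.07 ± 0.21 (limma FDR 0.0280) and Wnt6 by 0.86 ± 0.18 (limma FDR 0.0362), and both lost the call when each library was recentred on its upper quartile (limma FDR 0.0603 and 0.0669). Of 65 channel and receptor genes tested none was lower, beside 3.62% of all genes. Scn2b (1.69) and Scn3b (1.47), accessory subunits of sodium channels, were higher (3.08%, beside 8.53%). Scn2b overlaps Gm10684, so its value can include reads of that gene. Over the whole list of channels and receptors 214 genes were tested, of which 4 were lower and 14 higher. Of 51 BMP pathway and Id genes 16 had a member, and of the 9 tested the receptor gene Acvr2b was higher (by 1, a share of 11.1%). Of 109 cadherins 15 had a member, 13 were tested, and Celsr3 and Cdh23 (1.38) were higher (15.4%). Cdh23 overlaps Vsir and Gm17455, so its value can include reads of those genes. Of the 20 tested collagens, laminins and integrins Lamc1 (-1) was lower (5%) and Col13a1 higher (5%). These shares rest on few genes. Among 14 PRC2 genes only Epop, an accessory subunit, had members (2), and it was not called against WENRC (-0.09). Of 19 PRC1 genes 4 had a member, and none of these was called against WENRC. Of 16 NF-kB response genes Cd40 had members (2), and it was not called (0.36).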

How the data were processed

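Regions were taken from the authors' deposited tables, in which HOMER called peaks of one culture with the other as control on mm9, per the file headers. RANKL tags per region are whole counts, WENRC tags are a signal the authors scaled to RANKL depth (0.5 where none), and the fold is the authors' ratio of these, with the peak caller's p-value, per the file headers. The deposited GRO-seq table holds log2 values normalized by the authors over whole RefSeq genes (HOMER, per the file headers); the transform is not named, and low values are compressed, so log2 differences understate the change of weakly transcribed genes. It also holds the authors' own log2 fold changes and adjusted p-values. Bowtie2 2.3.4.1, HOMER and DESeq2 are named in the submitters' processing notes.

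Member genes were the nearest-TSS genes of the deposited annotation, matched by symbol (2971), RefSeq ID (23) or Entrez ID (1); 44 genes (58 regions) had no match. Genes with at least 2 libraries at log2 of 10 or more were tested with limma 3.58.1 (R 4.3.3) with a variance trend, all 6 libraries in 1 fit of 3 culture means, two-sided, with Benjamini-Hochberg adjustment over 16563 genes and calls at an FDR below 0.05. The fit was also run on simulated data in which all libraries of a gene had the same spread. The replicate differences here had unequal SDs (0.22 in RANKL, 0.421 in WENRC and 0.699 in ENRI), so that run does not check the calls under unequal spread. Levels per length are the log2 value minus log2 of gene length in kb.

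The named genes were the 12 most negative and 8 most positive called differences against WENRC whose libraries do not overlap, up to 3 genes per list by smallest p, the 5 genes with the most members, and the regions with the highest fold, most tags or nearest the distance limits. The HoxB genes and the dense windows were added after their values were seen. The members and lists were chosen with earlier results of these data known. GRO-seq replicate numbers were not taken as pairs, since the labels tie no RANKL library to a mouse. Some genes that the rule names are not reported here.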

Additional observations from a re-analysis of the deposited data

How the results depend on the processing

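Counts below are member genes called lower and higher in RANKL. Against WENRC (107 and 110) the fit of only the 4 libraries compared gave 299 and 212, and the authors' deposited adjusted p 273 and 185 with a median log2 difference of -0.20 in place of -0.08. Recentring on the upper quartile moved the median to -0.19, where all genes moved to -0.12. With only regions of fold 4 or more the counts were 31 and 14, and the median was -0.25. Leaving out 1 library gave 0 to 301 lower and 0 to 212 higher.

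Against ENRI (185 and 139) the 4 libraries compared gave 115 and 89, and the authors' table a median of -0.21 in place of -0.04. Fold 4 or more gave 37 and 26, with a median of -0.10, and genes with no RANKL-higher region within 1 kb gave 116 and 87. Leaving out 1 library gave 5 to 330 lower, 3 to 313 higher and medians from -0.08 to 0.01. For counts from fewer regions or libraries the smaller number of genes or samples is part of the alternative; otherwise the cause was not tested. Filters on low values (none, or log2 of 50), quantile normalization, genes that overlap no other gene and genes with no member over the TSS (chosen after seeing the data) kept every count within 1.5 times.

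A fold of at least 4 left 462 regions, of which 43.9% lay upstream, and the 2 members that overlapped a WENRC-higher region by 1 bp fell to 0 at an overlap of 50%.

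With the replicate number as a block, 72 and 101 member genes were called against WENRC and 172 and 122 against ENRI. Replicate differences correlated at -0.32 between RANKL and WENRC, -0.20 between RANKL and ENRI and 0.41 between WENRC and ENRI, so the RANKL numbers were not treated as pairs. A crossed pairing, chosen after seeing the data, called 98 and 112 against WENRC and 190 and 153 against ENRI. With the block Wnt6, Chga, Gli1 and Hoxb8 lost the call against WENRC, and Hoxb9 and Spdef against ENRI. GRO-seq depth is unknown, and 1 WENRC library for the mark leaves its difference without an error.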
